A study of Mus musculus with 2 samples.

Results

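The kinesin motor genes of mouse CD8 T cells were compared between 1 library from wild-type C57BL/6 mice and 1 library from DGKζ-/- mice of the same strain. The members are all genes of the deposited table whose symbol has the form Kif or Kifc, a number and at most 1 letter, which gave 41 of 24013 gene symbols. Cenpe, a mitotic kinesin with another kind of symbol, is therefore not among them and is given with its partners. The wild-type animals were 7 weeks old and the deficient animals 6 weeks old. In both groups naive CD8 cells from spleen were held for 24 hours on plates coated with antibodies to CD3 and CD28. DGKζ phosphorylates diacylglycerol and so ends a signal of the T cell receptor to Ras. The labels give neither the deleted exons, nor the sex, nor how many animals went into each library.

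Kinesins are ATP-driven motors that walk along microtubules or take them apart at their ends. A mitotic group builds the spindle, moves and aligns chromosomes and cuts the daughter cells apart, and its genes are transcribed mainly in G2 and M phase. A transport group carries mitochondria, endosomes, lysosomes and other cargo through the cell in all phases. Naive T cells are quiescent, and stimulation through the T cell receptor brings them into the cell cycle. The 41 genes were placed in a mitotic class of 14, a transport class of 17 and a remaining class of 10 with roles in cilia, centrioles, microtubule ends or roles not assigned here.

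With 1 library per genotype no difference has a replicate check and no test of the genotypes is possible. Values are the deposited normalized read counts. The log2 ratio is log2((deficient + 10)/(wild type + 10)), and folds are ratios without that pseudocount of 10. Each fold has an exact 95% interval (Clopper-Pearson) for counting error alone, and no molecular identifiers marked reads copied from 1 molecule. A gene counts as measured at a mean of at least 50 normalized counts, which 10518 genes and 28 of the 41 kinesins reached. It is called 2-fold different where its log2 ratio reached 1 or -1. Over all compared genes the median log2 ratio was 0.055, and 137 genes were called higher and 136 lower (115 and 178 with both libraries scaled to equal totals).

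Counting 1 transcript row per gene, 37211969 reads came from the wild-type and 13464169 from the deficient library, so the deficient values carry the wider error. Dgkz itself stood at 6714 and 2591 normalized counts. All 5 defining markers of CD8 T cells (Cd8a, Cd8b1, Cd3d, Cd3e and Cd3g) were measured in both libraries, at log2 ratios from -0.87 to -0.18. The 8 measured of 9 B cell markers had summed normalized counts of 2981 and 2204 and a median log2 ratio of -0.80, with Pax5 below the minimum. Of 3 markers of CD4 T cells Cd4 was called lower, at 171 and 53.2, while Foxp3 stood at 262 and 321 with an interval above 1 (1.03 to 1.46) and that of Zbtb7b included 1. Of 5 myeloid markers 2 were measured, with sums of 220.4 and 255.5. Xist stood at 14.0 and 9206 normalized counts and the Y-linked gene Ddx3y at 3759 and 0 reads, so the libraries also differ in sex. The part of age, sex and other cells in any difference below was not tested, and fewer cells of a kind cannot be told apart from less RNA per cell.

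The promoters of some members are shown first, because the mitotic genes shared a sequence feature that their choice did not use. Windows of 300 bases around the transcript start, 250 before it and 50 from it on, came from RefSeq (GRCm38.p6). They were at hand for 23 of the 28 measured kinesins, leaving out Kif20a, Kif5b, Kif13b, Kif21b and Kifc3. Both strands were searched for TTTGAA, a common form of the cell cycle genes homology region (CHR), an element known from promoters active in G2 and M phase. The other motifs were CCAAT, the box bound by NF-Y, and TTTCCCGC or TTTGGCGC as forms of the E2F site. No motif contains another in full. Capitals in the sequences mark matches on either strand, and each sequence runs from 200 bases before the start through the first 30 bases of the transcript. Kif11, Kif22 and Kif23 are mitotic genes with a CHR next to a CCAAT box, Kif18a is the 1 mitotic gene without TTTGAA in its window, and Kif1b is the transport gene with the highest ratio between the libraries.
Kif11, chr19:37376182-37376411, plus strand: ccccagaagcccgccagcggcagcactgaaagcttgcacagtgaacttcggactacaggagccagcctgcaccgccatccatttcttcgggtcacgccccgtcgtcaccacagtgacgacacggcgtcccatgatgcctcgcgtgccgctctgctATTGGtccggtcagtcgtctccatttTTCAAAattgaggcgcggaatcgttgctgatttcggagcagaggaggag
Kif22, chr7:127042391-127042620, minus strand: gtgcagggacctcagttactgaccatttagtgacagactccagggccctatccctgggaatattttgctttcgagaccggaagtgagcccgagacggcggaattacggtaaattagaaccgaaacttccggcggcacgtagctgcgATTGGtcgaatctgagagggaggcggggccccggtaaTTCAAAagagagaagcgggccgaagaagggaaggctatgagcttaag
Kif23, chr9:61946770-61946999, minus strand: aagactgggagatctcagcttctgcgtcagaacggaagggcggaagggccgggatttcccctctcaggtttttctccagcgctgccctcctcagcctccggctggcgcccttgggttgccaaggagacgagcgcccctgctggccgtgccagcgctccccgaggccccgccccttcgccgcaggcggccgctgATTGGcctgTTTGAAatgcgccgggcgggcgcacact
Kif18a, chr2:109280538-109280767, plus strand: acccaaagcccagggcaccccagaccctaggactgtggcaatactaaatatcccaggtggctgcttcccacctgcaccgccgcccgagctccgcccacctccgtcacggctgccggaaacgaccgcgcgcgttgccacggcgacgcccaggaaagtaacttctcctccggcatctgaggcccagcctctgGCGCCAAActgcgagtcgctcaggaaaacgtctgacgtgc
Kif1b, chr4:149307669-149307898, minus strand: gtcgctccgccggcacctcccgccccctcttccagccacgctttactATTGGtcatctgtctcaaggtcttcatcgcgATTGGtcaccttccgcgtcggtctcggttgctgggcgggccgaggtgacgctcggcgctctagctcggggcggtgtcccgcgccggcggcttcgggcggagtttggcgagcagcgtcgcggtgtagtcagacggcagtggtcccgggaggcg

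TTTGAA stood in 11 of 12 mitotic windows (91.7%), in 0 of 8 transport windows and in 0 of 3 windows of the remaining class. Among the windows of all 7933 compared genes that have one, 11.3% held it. The feature was not particular to kinesins. Among the spindle partners described below, 9 of 15 windows (60.0%) held TTTGAA, and 9 of 15 held both TTTGAA and CCAAT. The first base of the match lay within 30 bases of the start in 9 of the 12 mitotic windows and in 2.0% of all windows, a distance chosen after the positions had been seen. Both TTTGAA and CCAAT stood in 8 of the 12 mitotic windows, in 0 of the 8 transport windows and in 4.83% of all windows. CCAAT alone was less uneven, at 8 of 12 mitotic, 3 of 8 transport and 39.0% of all windows. An E2F form stood in 2 mitotic windows, those of Kif15 and Kif18a, and in 3.52% of all windows. A match is a run of letters and not a shown binding site. The windows of Kif2c, Kif7 and Kif4 lie 3867, 1521 and 328 bases from the start of the GENCODE transcript that pairs with their counted row.

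**Figure D1:**
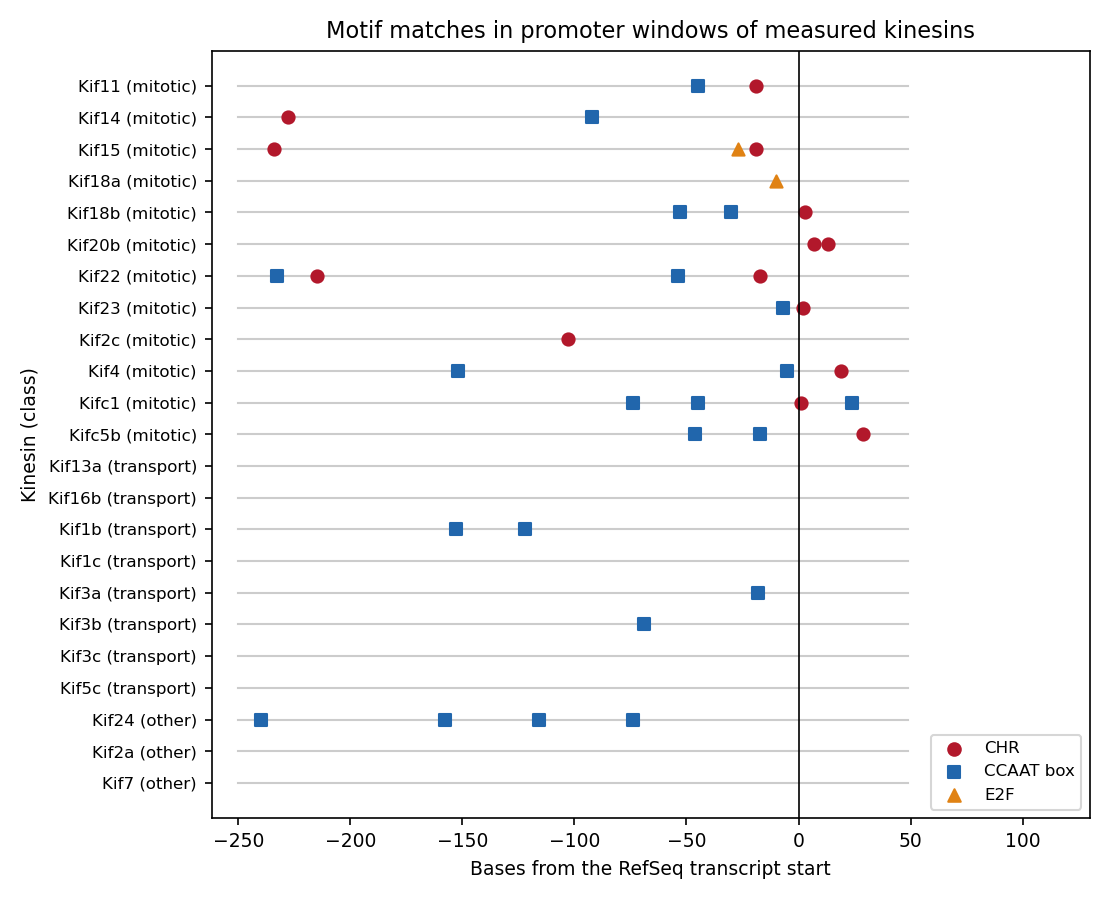
Positions of motif matches in the promoter windows of the 23 measured kinesins that have one (x axis, bases from the RefSeq transcript start; grey lines, the searched window). Circles mark TTTGAA (CHR), squares CCAAT and triangles E2F forms on either strand; circles appear in 11 of 12 mitotic rows and in none of the transport and other rows.

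As a class, the mitotic kinesins were higher in the deficient library. Of 14 members 13 were measured, and all 13 had a log2 ratio above 0, as did 58.2% of all compared genes. Their median log2 ratio was 0.54, with a range from 0.20 to 0.75. The counting interval of the fold lay wholly above 1 for all 13, against 35.8% of compared genes. None was called 2-fold higher, a call that 1.3% of compared genes received. Of the 13 genes, 12 lay above the upper quartile of all compared genes (0.22) and 6 above the 95th percentile. In sum the mitotic class took 0.114% of the reads in the wild-type and 0.150% in the deficient library, and its summed normalized counts were 1.40-fold higher (1.38 to 1.42).

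The motors that build the spindle held both the most and the least abundant measured mitotic members. Kif11 (Eg5), the tetramer that slides antiparallel microtubules apart and separates the poles, had 5884 (wild type) and 8925 (deficient) normalized counts. This is a 1.52-fold difference (1.47 to 1.57). Kif15, which backs up Kif11 in keeping the spindle bipolar, stood at 3573 and 4308, a smaller fold of 1.21 (1.15 to 1.26). The intervals of these partners in bipolarity did not overlap. Kifc1 (HSET), a motor of the opposite direction that focuses the poles, stood at 409.9 and 616 (1.50-fold, 1.32 to 1.71). Kifc5b, its close copy, was read at 138 and 211 (1.53-fold, 1.22 to 1.91). Of the 50-base words of the Kifc1 transcript 45.8% also occur in Kifc5b, so how reads were split between this pair is uncertain.

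Kif2c and Kif18a, which both act on kinetochore microtubules, held the highest and the lowest log2 ratio of the class. Kif2c (MCAK), a depolymerase that removes wrong attachments at centromeres, was read at 1037 and 1748 normalized counts. Its fold of 1.69 (1.56 to 1.82) exceeded that of 97.3% of compared genes on the log2 ratio, and its other transcript row gave 1.71. Kif18a, which dampens chromosome movement and aids alignment, stood at 869 and 998 (1.15-fold, 1.04 to 1.27). Its relative Kif18b, active on astral microtubules, stood at 1076 and 1261 (1.17-fold, 1.07 to 1.28). Both Kif18 genes therefore lay well below Kif2c, with intervals that did not overlap its own.

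Kif22 and Kif4 act on chromosome arms. Kif22 (Kid), which pushes the arms towards the spindle equator, was read at 1072 and 1595 normalized counts (1.49-fold, 1.37 to 1.61). Kif4, a chromosome-bound motor that works with condensin and with Prc1 in the central spindle, stood at 2212 and 3169 (1.43-fold, 1.35 to 1.52). Kif4 is the 1 measured kinesin on the X chromosome. The X-linked position and the difference in sex touch this gene, and their part was not tested. Of its transcript's 50-base words 15.9% also lie, on the opposite strand, in transcripts of Pdzd11, and the library kit does not mark strand.

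Among the motors of cytokinesis, Kif20a and Kif23 had higher folds than Kif20b and Kif14. Kif20a (MKLP2), which brings the chromosomal passenger complex to the midzone, was read at 3178 and 4848 normalized counts (1.53-fold, 1.46 to 1.60). Of its 50-base words 22.3% lie antisense in Cdc23. Kif23 (MKLP1), the motor of the centralspindlin complex, stood at 1669 and 2423 (1.45-fold, 1.36 to 1.55). Kif14, which binds Prc1 and recruits citron kinase, stood at 1427 and 1873 (1.31-fold, 1.22 to 1.41). Kif20b (MPP1), needed late in cytokinesis, stood at 2163 and 2584 (1.20-fold, 1.12 to 1.27). Kif20a and Kif20b share a subfamily, and their intervals did not overlap, whereas those of Kif23 and Kif14 did.

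The 13 mitotic folds thus ran in a band from 1.15 to 1.69, with Kif18a, Kif18b, Kif20b and Kif15 at its lower end and Kif2c at its top. Kif2a, which also acts at spindle poles but was placed in the remaining class, lay outside this band at 0.757 (0.683 to 0.838). Kif2b, the remaining mitotic member, held 0 reads in both libraries, which allows up to 1.75 (wild type) and 5.14 (deficient) normalized counts at 3 reads each.

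The transport kinesins had no common direction. Of 17 members 12 were measured, 6 with a log2 ratio above 0 and 6 below (41.8% of compared genes were below). Their median log2 ratio was 0.081, and it was -0.0079 at equal totals. The counting interval lay wholly above 1 for 6 genes, wholly below 1 for 2 (21.7% of compared genes) and included 1 for 4. Kif1b alone was called 2-fold higher, and 0 of the 28 measured kinesins were called lower, as 1.29% of compared genes were.

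Kif1b, a motor for mitochondria and for vesicle precursors, stood apart from every other kinesin. It had 1017 (wild type) and 3468 (deficient) normalized counts, from 1744 and 2022 reads. The fold was 3.41 (3.20 to 3.64) and the log2 ratio 1.76, above 99.7% of compared genes. Per kb of its longest transcript row it moved from rank 22 to rank 13 among the 28 measured kinesins, and these ranks depend on that row's length. Its measured relative Kif1c, which moves vesicles and supports podosomes, stood at 1621 and 1597, with an interval that includes 1 (fold 0.985, 0.914 to 1.06).

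The 3 transcript rows of Kif1b did not carry the same fold. The longest row, NM_001290995, and NM_207682 both gave 3.41, whereas NM_008441 gave 4.17 (3.88 to 4.48), from 1279 and 1813 reads. By the GENCODE transcripts paired with these rows, NM_008441 shares 2241 of the 10233 bases of the longest row and has a tail of its own. The longest row held 271 (wild type) and 358 (deficient) more normalized counts than NM_008441, a ratio of 1.32. As 7992 bases are only in the longest row and 4750 only in NM_008441, that difference is a net of both parts. The ratio is therefore not the fold of either part. By the same paired transcripts, the longest row also holds 4241 bases that NM_207682 lacks, 41.4% of its length. The rows differed by 11 of 1744 reads in the wild-type and 13 of 2022 reads in the deficient library, or 0.631% and 0.643%. If reads in shared bases were counted for both rows, nearly all Kif1b reads of either library would lie outside that stretch. This also requires that the counted rows match their paired transcripts. That was not checked, as the counting annotation was not given. No other measured kinesin with several rows differed by more than 0.096 on the log2 ratio between its rows, against 0.29 for Kif1b.

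Kif5b, the ubiquitous heavy chain of conventional kinesin, was the most abundant transport motor, at 5826 and 6623 normalized counts (1.14-fold, 1.10 to 1.18). Kif5c, its neuronal relative, stood at 74.1 and 109.8 (1.48-fold, 1.08 to 2.02) from 127 and 64 reads. The motor subunits of the heterotrimeric kinesin were not told apart by their counting intervals, which overlapped. Kif3b stood at 1574 and 2072 (1.32-fold, 1.23 to 1.41) and Kif3c at 491 and 626 (1.27-fold, 1.12 to 1.44). Kif3a, the partner that both subunits bind, was read at 84.5 and 75.5, from 145 and 44 reads, with an interval that includes 1 (fold 0.892, 0.622 to 1.26). Of the 50-base words of Kif3c 38.1% lie antisense in 1110002L01Rik, and its value is uncertain for that reason. Kif16b, a motor of early endosomes, stood at 1811 and 2235 (1.23-fold, 1.16 to 1.32).

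Kif21b, a motor that slows microtubule growth and is known from the T cell cytoskeleton, was the measured transport member furthest below 0. Its normalized counts were 2473 and 1809, which is 1.37-fold lower in the deficient library (1.28 to 1.46). Kifc3, a motor of the opposite direction at cell junctions and the Golgi, stood at 244 and 197 (1.24-fold lower, 1.01 to 1.54). Both other Kifc3 rows had intervals that include 1. Kif13a, which carries vesicles from the Golgi, and its relative Kif13b had intervals that include 1. Kif13a stood at 224 and 211 (fold 0.940, 0.761 to 1.15) and Kif13b at 671 and 652 (fold 0.971, 0.862 to 1.09). The signs of Kif1c, Kif13a and Kif13b turned when a trend on coding length was removed.

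**Figure D2:**
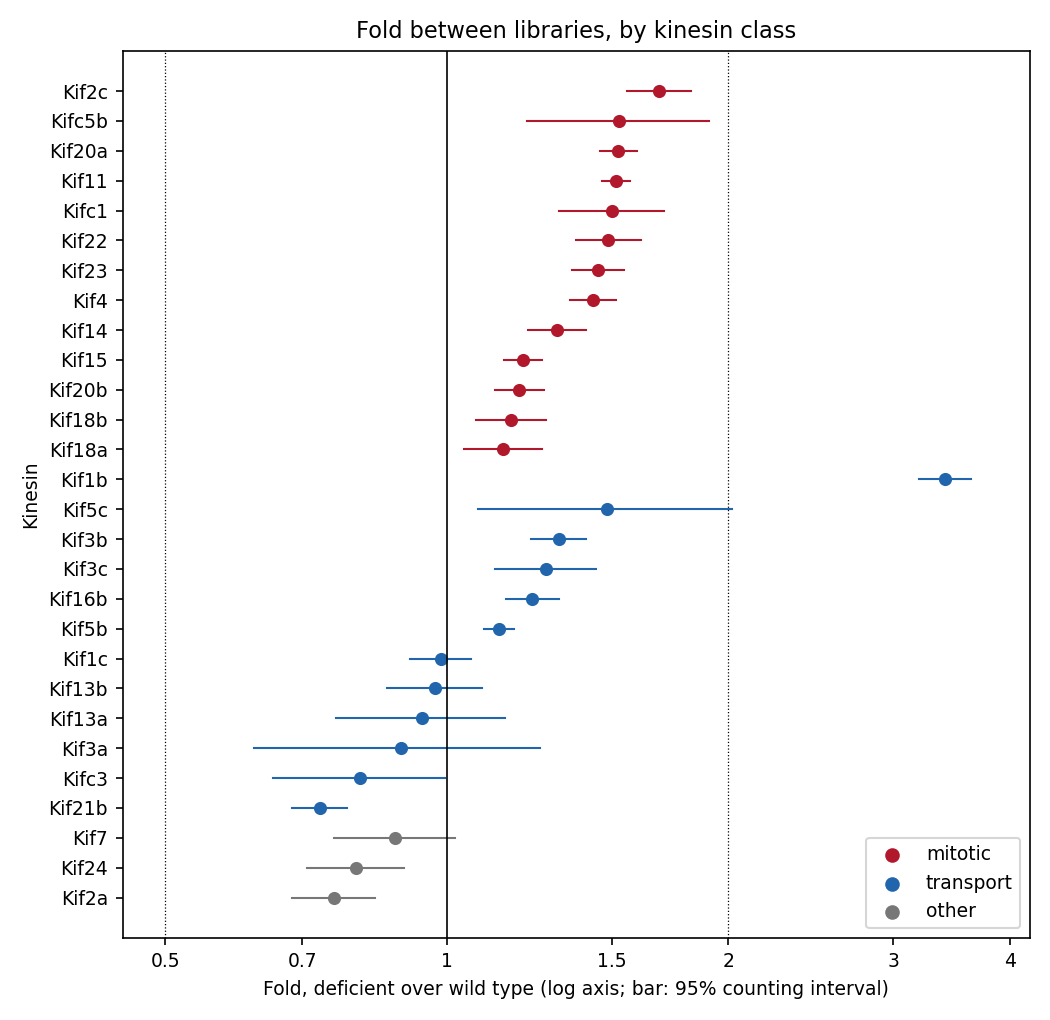
Fold of each measured kinesin, deficient over wild type (x axis, log scale; points, ratio of normalized counts; bars, exact 95% counting interval; dotted lines, 2-fold either way; y axis, genes by class). All 13 mitotic kinesins lie between 1.15 and 1.69, while the transport kinesins spread from Kif21b at 0.731 to Kif1b at 3.41.

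Set side by side, the mitotic median exceeded the transport median by 0.45 on the log2 ratio. The classes overlapped: 7 of 12 transport members lay below the lowest mitotic member, 4 lay within the mitotic range, and Kif1b lay above it. The summed transport class was higher by 3563 normalized counts, or 1.22-fold (1.19 to 1.25), and without Kif1b by 1112, or 1.07-fold (1.05 to 1.10). As a share of reads, the class without Kif1b stood at 0.0696% in the wild-type and 0.0702% in the deficient library. Its fold therefore depends on how the libraries were scaled. Without Kif1b the transport median was -0.022. The genes of a class are not replicates of a genotype, so the contrast describes these libraries.

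The 3 measured genes of the remaining class were all below 0, with a median log2 ratio of -0.32. Kif2a, a depolymerase of spindle poles and of neurons, had normalized counts of 1065 and 806 and was 1.32-fold lower (1.19 to 1.46). It belongs to the subfamily of Kif2c, which stood at the top of the mitotic class. Counted as mitotic, Kif2a would be the only measured member of that class below 0. The mitotic median log2 ratio would then be 0.53, so the common direction of that class depends on this placement. Kif24, which restrains cilium assembly at the mother centriole, stood at 757 and 605 (1.25-fold lower, 1.11 to 1.41). Kif7, the scaffold of Hedgehog signalling in the cilium, stood at 456 and 401, with an interval that includes 1 (1.14-fold lower, 0.981 to 1.32), and 16.4% of its 50-base words lie antisense in 9330171B17Rik.

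**Figure D3:**
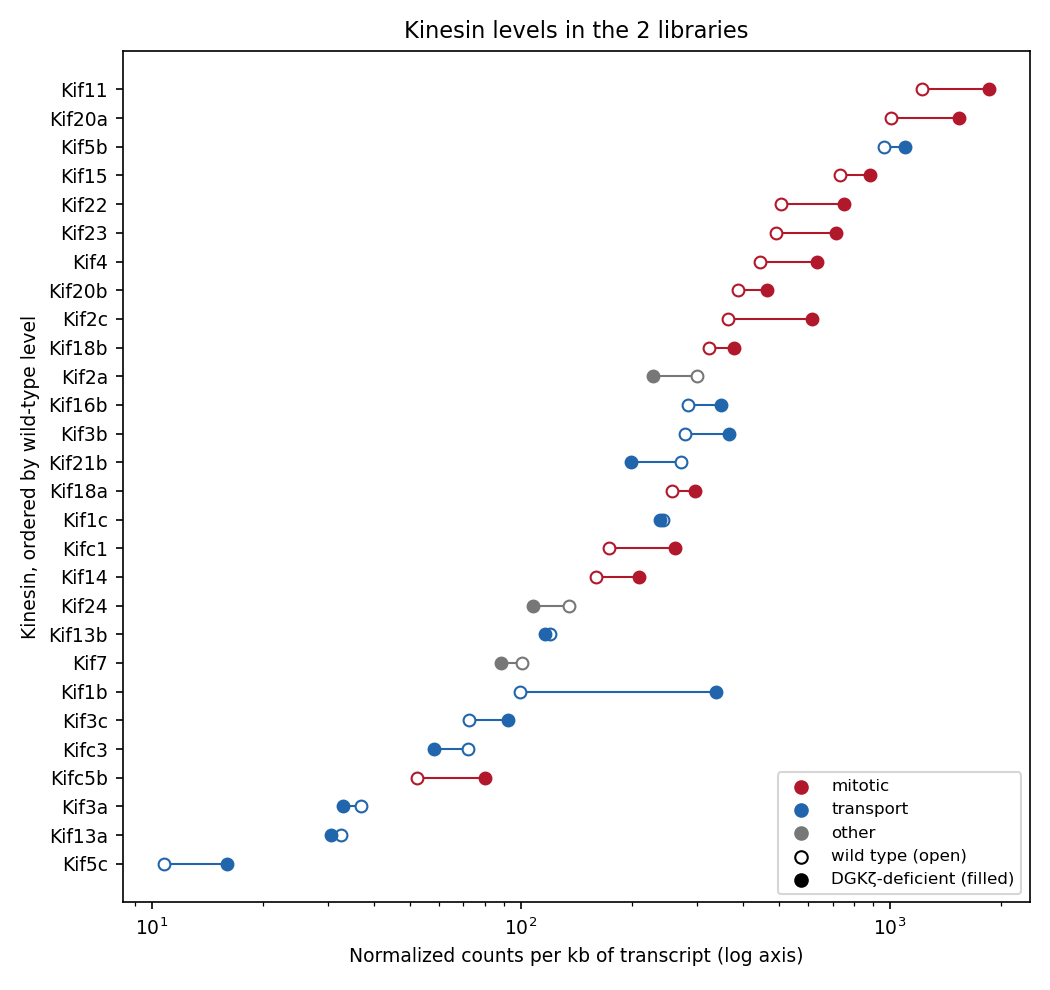
Levels of the 28 measured kinesins per kb of transcript (x axis, normalized counts per kb, log scale; open points, wild-type library; filled points, deficient library; y axis, genes ordered by wild-type level; colours, class). Kif11 leads at 1221 and 1852, and Kif1b has the longest line, from 99.4 to 339.

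Per kb of transcript, with lengths from GENCODE, the order at the top was the same in both libraries. Kif11 led at 1221 (wild type) and 1852 (deficient) normalized counts per kb, followed by Kif20a at 1010.1 and 1541. Kif5b followed at 966 and 1098 and was, with the row of highest mean for each gene, the only transport motor among the 10 highest of either library. Kif15 (735 and 887), Kif22 (507 and 754), Kif23 (491 and 713) and Kif4 (444 and 636) followed. By its shorter rows Kif1b would stand at 575 or 445 per kb in the deficient library, if these rows had their paired lengths. Both levels are above that of Kif18b, which held rank 10 there at 379. The lowest measured level belonged to Kif5c, at 10.8 and 16.0 per kb. Kif2a went from rank 11 to rank 17 and Kif21b from rank 14 to rank 19. By its other, longer row Kif2a would stand at 196 (wild type) and 149 (deficient) per kb, so its ranks depend on the row taken. Neighbouring ranks are not told apart by these data, since no spread between animals is known.

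The 13 kinesins under the minimum had at most 39 reads in the wild-type and 20 in the deficient library, both in Kif9. They were Kif2b, the transport genes Kif1a, Kif5a, Kif17, Kif21a and Kifc2, and Kif6, Kif9, Kif12, Kif19a, Kif26a, Kif26b and Kif27. Many of these are known from neurons, cilia or testis. In the deficient library 7 of the 13 held 0 reads, Kif2b among them. An interval that left 1 was seen for Kifc2 (27 and 2 reads), Kif26b (34 and 4 reads) and Kif1a (14 and 0 reads), all lower in the deficient library. The Kif1a rows with 12 and 0 reads had intervals that include 1. For the other members under the minimum no difference was detectable at this depth.

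Genes that work with the motors were read from lists that hold them whatever their values. The list of spindle partners resembled the mitotic kinesins, with 16 of 18 members above 0 and a median log2 ratio of 0.60. Nusap1, a microtubule-bundling protein of the spindle, was called higher at 1487 and 3048 normalized counts (2.05-fold, 1.93 to 2.18), and its call was lost at equal totals and after recentring. Hmmr (1.97-fold, 1.84 to 2.10), Prc1, the cross-linker of the central spindle on which Kif4 acts (1.81-fold, 1.71 to 1.92), and Aurka (1.74-fold, 1.60 to 1.88) came next. Cenpe, the kinesin of the kinetochore, stood at 2363 and 3953 (1.67-fold, 1.59 to 1.76). Racgap1, which forms centralspindlin with Kif23, stood at 2607 and 4356 (1.67-fold, 1.59 to 1.75). Cit, the citron kinase that Kif14 recruits, was among the exceptions at 1090.4 and 907 (fold 0.832, 0.754 to 0.917), and Numa1 stood at 6022 and 5489.7. For comparison, the 18 genes of G1/S and replication had a median of 0.077, with 13 above 0 as reported (72.2%) and 7 at equal totals (38.9%). Of all compared genes 58.2% were above 0 as reported and 44.8% at equal totals. The largest log2 ratios there were 0.39 for Rrm1, 0.35 for Rrm2, 0.32 for Ccne1 and 0.32 for Tyms.

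The cargo partners of the transport motors had a median log2 ratio of 0.075 over 16 measured members, 0 of them called and 10 above 0 (62.5%), or 7 at equal totals (43.8%). Both shares are near those of all compared genes, 58.2% and 44.8%. Trak1, the adaptor of Kif5 motors on mitochondria, stood at 1577 and 1101 normalized counts (fold 0.698, 0.640 to 0.761). Its relative Trak2 stood at 2910 and 3159 (1.09-fold, 1.03 to 1.15). Madd, a linker of Kif1b to Rab3 vesicles, stood at 2342 and 1672 (fold 0.714, 0.665 to 0.766), opposite in direction to Kif1b. The light chain gene Klc3 stood at 385 and 278 (fold 0.722, 0.604 to 0.859), while Klc1 stood at 1287 and 1463 (1.14-fold, 1.05 to 1.23). Kifap3, the adaptor subunit of the Kif3 motor, stood at 322 and 406 (1.26-fold, 1.08 to 1.47).

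Dynein and dynactin, the motor machinery of the opposite direction, had a median log2 ratio of 0.11 over 18 measured genes, with 0 called and 12 above 0 (66.7%), or 11 at equal totals (61.1%). Dync1h1, the heavy chain, stood at 11232 and 10523 normalized counts (fold 0.937, 0.910 to 0.964). The largest log2 ratios were those of Dync1i2 (0.43), Bicd2 (0.27), Dync1li1 (0.27) and Nde1 (0.22). The tubulins, which form the tracks, had 13 of 13 measured members above 0 (12, or 92.3%, at equal totals), a median of 0.35 and 0 called. Tubb5, the main β-tubulin here, stood at 82819 and 101690 (1.23-fold, 1.22 to 1.24). Tubb2b (0.96), Tubb3 (0.82), Tubb2a (0.72) and Tuba1a (0.67) had the largest log2 ratios, and Tubb2b rested on 93 and 67 reads.

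**Figure D4:**
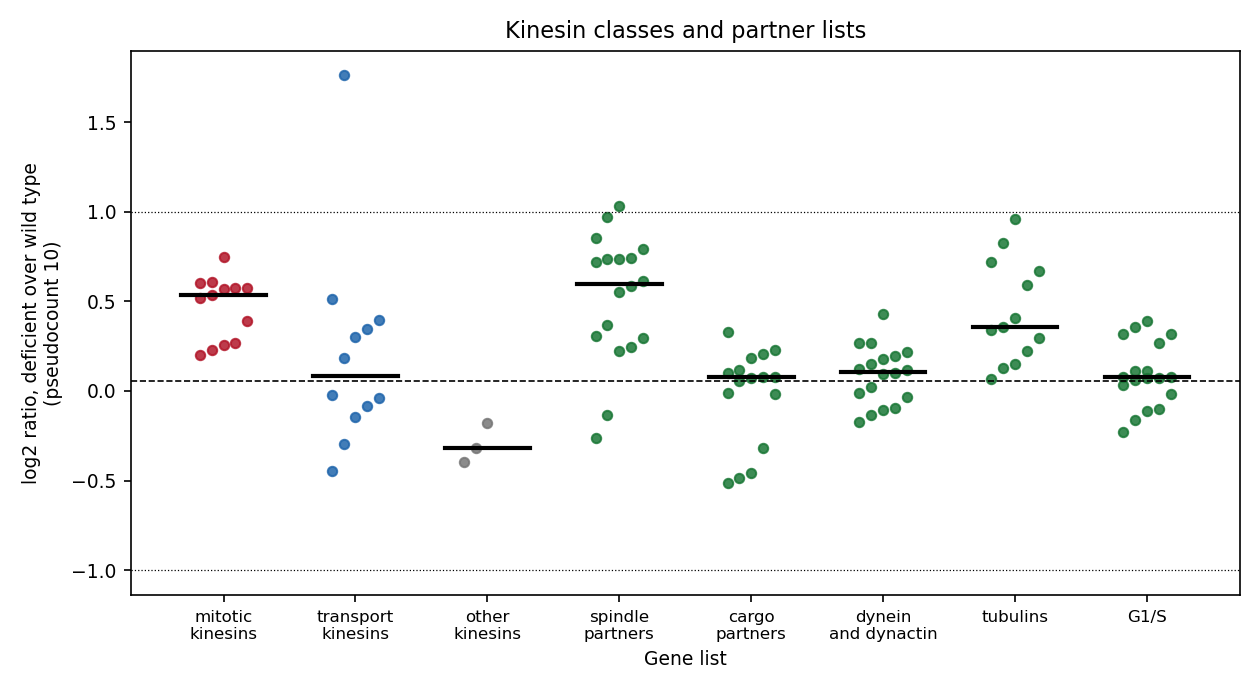
Log2 ratio of every measured member of the kinesin classes and partner lists (y axis, deficient over wild type with a pseudocount of 10; points, genes; black bars, list medians; dashed line, median of all compared genes; dotted lines, 2-fold). Mitotic kinesins (median 0.54), spindle partners (0.60) and tubulins (0.35) lie mostly above the dashed line, and Kif1b is the top point of the transport kinesins.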

How the data were processed

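RNA from stimulated splenic CD8 T cells was sequenced in 1 library per genotype, with the NEBNext Ultra kit per the labels' protocols. Per the submitters' processing notes, STAR version 2, DESeq and build mm9 were used. The step each served, like the counting program and annotation, was not given in the sources used here. What the authors deposited are read counts divided by 1 size factor per library, a signal per RefSeq transcript row, 33018 rows in all. All values (100%) were whole multiples of 1 read, within a relative tolerance of 0.0001, which gave size factors of 1.71 and 0.583 and the read numbers. A count test on those reads has no residual degrees of freedom and was not run. The authors deposited a second table of log2 fold changes, p-values and a test score; the score was not used.

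One row (Alg6), shifted by a tab, was left out (1 row). The row with the highest mean stood for each gene. Ratios and intervals were computed with Python 3.11.15, numpy 2.4.6, pandas 2.3.3 and scipy 1.17.1 and tested on simulated data. The simulated counts held counting error alone and planted folds larger than the mitotic ones. They therefore say nothing about spread between animals or libraries. Lengths came from GENCODE M21 transcripts (GRCm38) paired by RefSeq accession (10046 of 10518 compared genes, 41 of 41 kinesins); coordinates are given for promoter windows only. All measured kinesins are named, and of each partner list the 4 members with the largest absolute log2 ratio; Cenpe, Racgap1, Cit, Numa1, Trak2, Klc1, Dync1h1 and Tubb5 were named after their values were seen. The members, lists and classes were chosen with earlier results of these data known.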

Additional observations from a re-analysis of the deposited data

How the results depend on the processing

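Each value was recomputed under up to 15 alternatives: other pseudocounts (1 and 50) and minimum means (20, 200 or none), equal totals, recentring, other transcript rows or their sum, other class memberships, and a coding length trend removed. In the 13 alternatives for which calls were counted, 1 kinesin (Kif1b) was called higher and 0 lower. The changes of class membership among them could not alter this count, which ran over all kinesins. The mitotic median ran from 0.45 to 0.61, the transport median from -0.086 to 0.18 and their difference from 0.35 to 0.62. Without a minimum mean the transport median was -0.086 and the difference 0.62, and these were the 2 class values that moved by more than the counting error of a typical member. Leaving out Kif1b, and setting 0 reads to 3 reads, were chosen after seeing the data. Of 305 single values 19 left the gene's counting interval. Kif1b, the only called kinesin, kept its sign. The signs of 3 uncalled kinesins (Kif1c, Kif13a and Kif13b) turned with the length trend removed, to 0.064, 0.044 and 0.093. Another minimum mean, or 0 reads set to 3 reads, could not alter the ratio of a measured kinesin. Choosing another transcript row, or summing rows, likewise could not alter a kinesin with 1 row. The single values in these cases were thus fixed in advance, and the 305 include them. The lowest mitotic log2 ratio was 0.11, and Kif1b ran from 1.67 to 2.05. Equal totals shifted the median of all compared genes by -0.088. No paired analysis was possible because each genotype has 1 library. Depth limits the 13 kinesins under the minimum and the intervals of Kif3a, Kif5c and Kifc5b.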

Other observations

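In the authors' deposited table the order of the kinesins differs from that of the normalized counts. There Kif2c has a log2 fold change of 0.49, Kif11 one of 0.43 and Kif20a one of 0.43, and Kif1b one of 0.17, below Kif3b at 0.29. From the normalized counts Kif1b has a log2 ratio of 1.76 and Kif2c one of 0.75. No source used here says how the fold changes of that table were computed, so they may not be the same quantity as these ratios. The authors' deposited table gives an adjusted p below 0.05 to 0 of 30433 rows with a value, and an unadjusted p below 0.05 to 0 of 60 kinesin rows. The lowest unadjusted p there for a counted row is that of Kif2c, 0.055, and Kif1b has 0.303.

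Some genes of 1 subfamily, or partners in 1 complex, stood at unlike folds in these libraries, and others stood alike. Kif2c (fold 1.69) and Kif2a (0.757) are depolymerases of 1 subfamily, and Kif1b (3.41) and Kif1c (0.985) are transport motors of another. Kif14 (1.31) and its partner Cit (0.832) lay on opposite sides of 1, whereas Kif23 (1.45) and its partner Racgap1 (1.67) lay on the same side. Kif18a and Kif18b (1.15 and 1.17), Kif13a and Kif13b (0.940 and 0.971), Kif3b and Kif3c (1.32 and 1.27) and the near copies Kifc1 and Kifc5b (1.50 and 1.53) stood close together. These pairs were picked after the values were seen.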
